A study of Homo sapiens with 4 samples.

Results

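The genes described here encode secreted proteins of the extracellular matrix and an enzyme that stabilizes it. They are fibronectin (FN1), thrombospondins (THBS1 and THBS2), tenascin C (TNC), SPARC, periostin (POSTN), the laminin chains LAMA3 and LAMB3, and lysyl oxidase (LOX). They were picked by symbol, with earlier results of these data known, and all 9 were found among the 23228 genes of the count tables. Their RNA was compared between ES2 cells treated with vehicle and ES2 cells treated with 100 μM liquiritigenin (Liq) for 24 h, with 2 samples in each group. ES2 is an established line of human ovarian cancer cells, here a single line, and Liq is a plant flavanone used as an agonist of estrogen receptor beta (ERβ). Every sample was grown in phenol red–free RPMI-1640 with charcoal-treated serum, which is low in steroid hormones, and no genetic change is given for either group. The question was which genes respond to Liq. The samples are numbered within each group, but nothing states that they were separate cultures, so p-values measure only the spread between these samples, which may be technical.

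Fibronectin is a large adhesive glycoprotein that cells assemble into fibrils by pulling on it through integrins. Thrombospondins, tenascin C, SPARC and periostin are matricellular proteins: they sit in the matrix but act mainly by modulating adhesion and growth factor signals rather than by bearing load. Laminins are cross-shaped trimers of an alpha, a beta and a gamma chain that build basement membranes, and trimers that hold LAMA3 and LAMB3 anchor epithelia. Lysyl oxidase oxidizes lysines of collagen and elastin, which then form covalent crosslinks. In ovarian cancer, fibronectin and laminins line the peritoneal surfaces to which tumor cells attach.

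The libraries held between 34573053 and 48933893 gene counts. CPM here are counts relative to library size, adjusted by edgeR's TMM factors, which correct for library composition, and all fold changes are Liq over vehicle. On this scale 3 counts corresponded to 0.0598 to 0.0844 CPM. The 3 mesenchymal markers VIM, CDH2 and ZEB1 summed to 7590.0 to 7830.0 CPM in vehicle and 6130.0 to 6730.0 CPM in Liq. Nearly all of this was VIM, while CDH2 was at 115 and 114 CPM in vehicle and 133 and 134 CPM in Liq, and ZEB1 overlapped. Of 6 epithelial markers, KRT7, KRT8 and KRT18 had at least 10 counts, while CDH1 had 0 counts in all samples and KRT19 and EPCAM at most 3, and the list summed to 452 to 494 CPM in vehicle and 528 to 574 CPM in Liq. Its members went different ways, with KRT7 at 266 and 238 CPM in vehicle and 378 and 337 CPM in Liq, and KRT18 at 204 and 191 CPM in vehicle and 169 and 166 CPM in Liq. Of 3 ovarian markers, PAX8 and WT1 were detected and MUC16 had at most 1 count, and the list summed to 5.28 to 6.06 CPM in vehicle and 3.13 to 3.37 CPM in Liq. The lists for other cell types were mixed. Few or no counts were found for PTPRC (1 or fewer), MYH11 and DES (2 or fewer), VWF (7 or fewer), PECAM1 (10 or fewer) and CD14 (11 or fewer). Other genes of the same lists were clearly present, namely the immune marker CD68 at 66.4 to 77.4 CPM and the endothelial marker CDH5 at 44.6 to 52.9 CPM. RGS5, of the pericyte and smooth muscle list, was at 7.17 and 7.27 CPM in vehicle and 10 and 11.5 CPM in Liq. ESR2, which encodes ERβ, was close to the limit of detection with 4 and 7 counts in vehicle and 5 and 14 in Liq.

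The 9 genes spanned the range from the most abundant transcripts to the limit of detection. FN1 ranked second among all genes by count in each vehicle sample and first in each Liq sample. Between genes, levels are compared per length, as CPM per kilobase of annotated exon. On that scale the mean vehicle level was 449 for FN1, 108 for LAMB3, 103 for LOX, 51.3 for SPARC, 22.9 for TNC, 15.3 for THBS1, 1.10 for LAMA3, 0.128 for THBS2 and 0.00445 for POSTN. LAMB3 and LOX were close neighbors in vehicle, at 105 and 111 against 103 and 104, a difference not larger than the spread of the LAMB3 values. With Liq the order changed at that place alone, with LOX at 138 and 139 and LAMB3 at 94.8 and 102 CPM per kilobase. The order of all 9 was the same in each condition when the length of the canonical transcript was used instead. All other neighbors in the order were separated by more than their spread over samples.

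**Figure D1:**
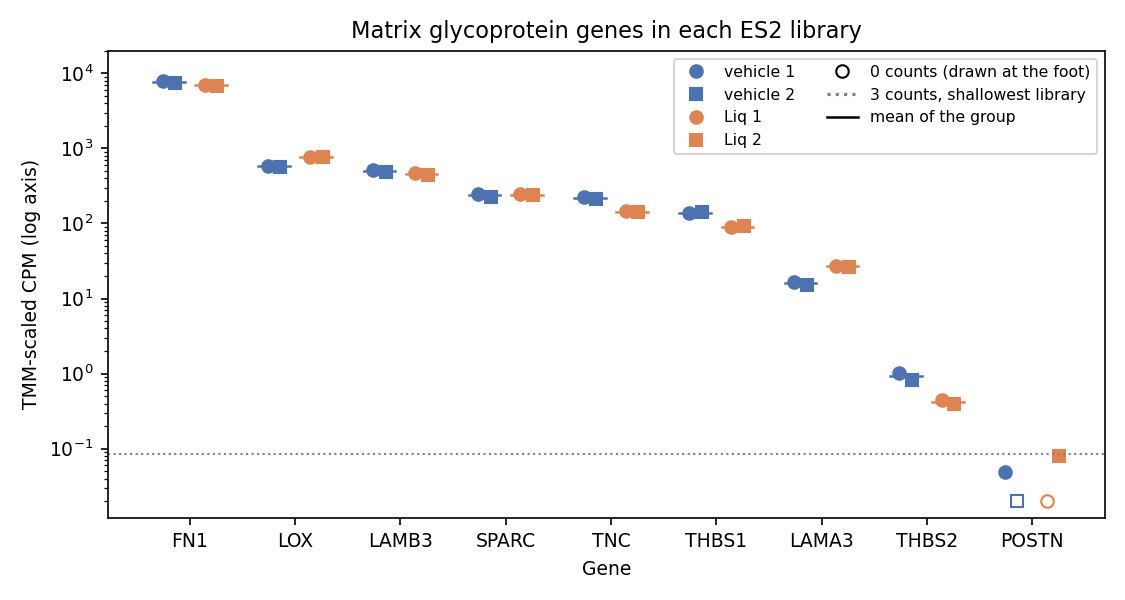
TMM-scaled CPM (log axis) of the 9 matrix genes in each of the 4 libraries, with bars at the group means and open symbols for 0 counts. LAMA3 and LOX are higher in both Liq samples, THBS1, THBS2 and TNC are lower in both, SPARC overlaps, and POSTN lies at or below the dotted line that marks 3 counts in the shallowest library.

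Of these 9 genes, 8 passed the filter on low counts and were tested with edgeR's quasi-likelihood test among 13546 genes. LAMA3 rose, and THBS1, THBS2 and TNC fell, by at least 1.5-fold with a Benjamini-Hochberg adjusted p-value under 0.05. Changes of that kind were found in 6.45% of all tested genes, 4.29% higher and 2.16% lower with Liq. Because the members were chosen with earlier results of these data known, these shares are only a background, and enrichment was not tested. LOX rose and FN1 fell with an adjusted p-value under 0.05 but by less than 1.5-fold. An adjusted p-value under 0.05 without a fold threshold was reached by 24% of all tested genes. The CPM of the groups did not overlap for 7 of the 8 tested genes, SPARC being the exception, and they did not overlap for 61.7% of all tested genes. The median log2 fold change was -0.144 over the 8 tested genes and 0.00619 over all tested genes. The smallest p-value that exact permutation of 2 samples against 2 allows is 0.3333, and the calls therefore depend on edgeR's estimate of the spread over all genes. In RNA from whole cultures, fewer cells of a kind and less RNA per cell cannot be told apart.

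**Figure D2:**
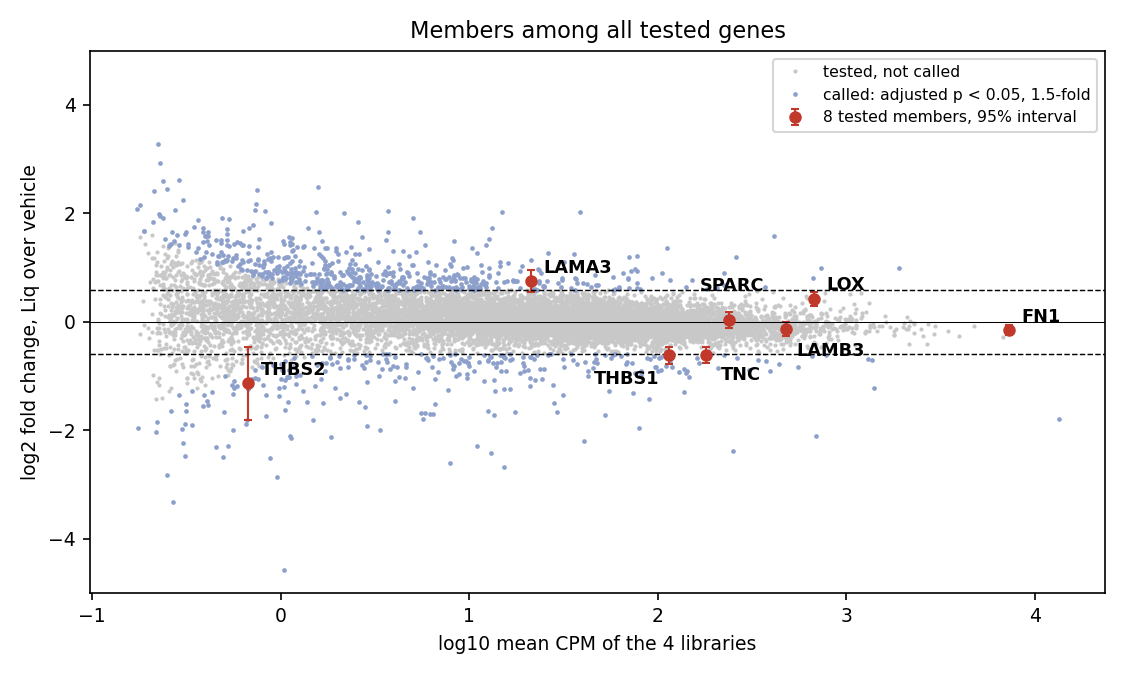
The log2 fold change (Liq over vehicle) of every tested gene against the log10 of its mean CPM, with the 8 tested members in red and their 95% intervals. THBS1 and TNC lie just beyond the dashed line of 1.5-fold at -0.62 and -0.61, LAMA3 lies above the upper line at 0.75, and FN1 stands near the right edge at -0.15.

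FN1, on chromosome 2 from 216225163 to 216300796 (minus strand, GRCh37), had 324898 and 282706 counts in vehicle and 249676 and 345605 in Liq. Scaled to the libraries these were 7902 and 7552 CPM in vehicle and 7021 and 6886 CPM in Liq. Each Liq sample was thus slightly below each vehicle sample. The log2 fold change was -0.15 (SE 0.049, 95% interval -0.25 to -0.052, edgeR adjusted p = 0.02367), a decrease of 1.11-fold. Fibronectin transcripts alone held 0.739% to 0.765% of all gene counts in vehicle and 0.706% to 0.722% in Liq, with 95% Wilson intervals (counting error only) of 0.7361% to 0.7416% and 0.7624% to 0.7676% for the vehicle samples and 0.7039% to 0.7086% and 0.7194% to 0.725% for the Liq samples. The decrease of FN1 is small enough to depend on the scaling: with offsets that follow the expression level the log2 fold change was -0.03 (edgeR adjusted p = 0.6721), and without vehicle replicate 1 it was -0.12 (edgeR adjusted p = 0.1972). It passed the adjusted threshold in 5 of 11 alternative settings and kept its sign in 11. Of the main fibronectin receptor chains, ITGA5 had 161 ± 6.27 CPM in vehicle against 157 ± 3.87 CPM in Liq (SD, n = 2; log2 fold change -0.03, edgeR adjusted p = 0.7805). Its partner ITGB1 rose by 0.17 on the log2 scale (edgeR adjusted p = 0.03809), which is under 1.5-fold.

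THBS1 encodes the trimeric thrombospondin that activates latent TGF-β and restrains angiogenesis, and it lies on chromosome 15 from 39873280 to 39891667 (plus strand, GRCh37). It had 5627 and 5337 counts in vehicle and 3148 and 4691 in Liq, or 137 and 143 CPM against 88.5 and 93.5 CPM. The groups did not overlap, and the gap between them was far wider than the spread within either. THBS1 fell by 0.62 on the log2 scale (SE 0.074, 95% interval -0.77 to -0.47, edgeR adjusted p = 6.819e-07), which is 1.53-fold. The adjusted p-value stayed under 0.05 in 11 of 11 alternative settings. Because the size of the change lies so near the threshold of 1.5-fold, THBS1 fell short of it with offsets that follow the expression level (-0.56) and without Liq replicate 1 (-0.58). The gene overlaps FSIP1 on the opposite strand, and whether the counting used strand is not given in the sources used here. FSIP1 had only 35 to 55 counts per sample.

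THBS2, on chromosome 6 from 169615875 to 169654145 (minus strand), encodes the close relative of THBS1 that likewise restrains angiogenesis. Its counts were 42 and 31 in vehicle and 16 and 20 in Liq, or 1.02 and 0.828 CPM against 0.450 and 0.398 CPM. Both Liq samples were below both vehicle samples, but at this depth the fold change had a wide error. THBS2 fell by 1.14 on the log2 scale (SE 0.32, 95% interval -1.8 to -0.47, edgeR adjusted p = 0.01191), which is 2.20-fold. The call was lost with the DESeq2 Wald test (adjusted p = 0.1357), without vehicle replicate 1 (edgeR adjusted p = 0.1918) and without Liq replicate 2 (edgeR adjusted p = 0.06414). Among the other thrombospondins, THBS4 rose from 23 and 29 counts to 56 and 75 (log2 fold change 1.2, SE 0.27, edgeR adjusted p = 0.001686). This increase was lost without vehicle replicate 1 (log2 fold change 0.98, edgeR adjusted p = 0.06005). THBS3 rose by 0.53 on the log2 scale (SE 0.11, edgeR adjusted p = 0.0008834), from 10.5 ± 1.04 to 15.2 ± 0.924 CPM (SD, n = 2). COMP, the cartilage member of the family, had at most 1 count per sample and was not tested. Within the thrombospondin genes, then, the THBS1 and THBS2 values were lower with Liq while those of THBS3 and THBS4 were higher.

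TNC, on chromosome 9 from 117781854 to 117880486 (minus strand), encodes tenascin C, a many-armed glycoprotein that is abundant in wounds and tumor stroma and counteracts adhesion to fibronectin. It had 9332 and 7962 counts in vehicle and 5151 and 7182 in Liq, which scale to 227 and 213 CPM and to 145 and 143 CPM. The Liq samples nearly coincided and both lay below the vehicle samples. TNC fell by 0.61 on the log2 scale (SE 0.071, 95% interval -0.76 to -0.47, edgeR adjusted p = 3.534e-07), which is 1.53-fold. The adjusted p-value was under 0.05 in 11 of 11 alternative settings. The change was under 1.5-fold with upper-quartile normalization, with offsets that follow the expression level (-0.54) and without vehicle replicate 1 (-0.56). Other tenascins were at the limit of detection, since TNR, TNXB and TNN had at most 4 counts per sample and were not tested. The ratio of THBS1 to TNC counts within a sample was 0.603 and 0.670 in vehicle and 0.611 and 0.653 in Liq. That ratio overlapped between groups, so a difference between the changes of TNC and THBS1 was not detectable in these samples.

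The windows around the transcription starts of THBS1, THBS2 and TNC are shown because these genes fell by at least 1.5-fold. They were thus picked by their result, FN1, which fell by less, is not among them, and shared regulation was not tested. The windows run from 250 bases before to 50 bases after the start and come from RefSeq (GRCh38.p14). Each matched GRCh37 at 1 place, with its start at that of an annotated transcript of the gene. Capitals mark the 4 motifs searched on both strands. These were the TATA box with the letters TATAAA, the site of the AP-1 factors with the letters TGACTCA, the GC box of SP1 with the letters GGGCGG, and the element of the TEAD factors with the letters GGAATG. The first sequence is from chr15:39580829-39581128 (plus strand), the second from chr6:169253797-169254096 (minus strand) and the third from chr9:115118108-115118407 (minus strand).
THBS1: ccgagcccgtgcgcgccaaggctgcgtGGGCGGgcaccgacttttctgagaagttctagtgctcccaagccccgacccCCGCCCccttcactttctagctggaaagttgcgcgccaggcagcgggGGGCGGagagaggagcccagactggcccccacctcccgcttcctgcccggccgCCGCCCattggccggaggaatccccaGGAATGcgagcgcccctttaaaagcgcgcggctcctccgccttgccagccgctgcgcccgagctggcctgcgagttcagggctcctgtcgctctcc
THBS2: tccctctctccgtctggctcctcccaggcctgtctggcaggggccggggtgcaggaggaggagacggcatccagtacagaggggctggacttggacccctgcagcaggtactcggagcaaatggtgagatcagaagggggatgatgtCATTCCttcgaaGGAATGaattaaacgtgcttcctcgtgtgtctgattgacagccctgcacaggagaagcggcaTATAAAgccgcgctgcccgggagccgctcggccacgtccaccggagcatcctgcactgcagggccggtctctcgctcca
TNC: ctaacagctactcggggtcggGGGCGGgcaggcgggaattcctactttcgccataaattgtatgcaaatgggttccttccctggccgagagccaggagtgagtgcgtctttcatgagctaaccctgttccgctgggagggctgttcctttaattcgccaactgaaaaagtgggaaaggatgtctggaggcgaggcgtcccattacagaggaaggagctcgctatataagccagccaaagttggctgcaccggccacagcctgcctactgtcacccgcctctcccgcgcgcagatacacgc
The THBS1 window holds 4 GC boxes and 1 TEAD element, the THBS2 window holds 2 TEAD elements and a TATA box that begins at -29, and the TNC window holds 1 GC box. None of these 3 windows holds TGACTCA in either direction. Only exact letters were matched, so variant forms are unmarked. The TNC window, for example, reads tatataag, which differs from TATAAA and was not counted as a TATA box. A TEAD element was found in 14% of all 35116 windows, a GC box in 45.0% and a TATA box in 11.5%. The TEAD element was also present in the window of SPARC, which did not pass the test, so 3 of the 9 genes held it. A match is a description of the sequence.

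SPARC, on chromosome 5 from 151040657 to 151066536 (minus strand), encodes a collagen-binding matricellular protein. It had 10174 and 8562 counts in vehicle and 8725 and 12089 in Liq, or 247 and 229 CPM against 245 and 241 CPM. The Liq values fell between the vehicle values. The log2 fold change was 0.03 (SE 0.069, edgeR adjusted p = 0.7933), and its 95% interval of -0.11 to 0.17 lay within 1.5-fold in either direction. Its relatives SPOCK1, SMOC1 and FSTL1 did not pass the test either, with log2 fold changes of 0.01, -0.06 and -0.04. Nor did SPOCK3, at 14 to 32 counts per sample (log2 fold change 0.46, edgeR adjusted p = 0.4031). SMOC2 rose by 0.63 on the log2 scale (SE 0.22, edgeR adjusted p = 0.03806) from 54 counts in each vehicle sample to 63 and 122 in Liq, and this call was lost in 5 of the alternative settings.

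POSTN, on chromosome 13 from 38136720 to 38172981 (minus strand), encodes periostin, which stromal cells secrete around tumors. It had 2 and 0 counts in vehicle and 0 and 4 in Liq. The exact Poisson 95% intervals, which cover counting error only, were 0.242 to 7.22 counts for the vehicle sample with 2 counts, 1.09 to 10.2 for the Liq sample with 4, and up to 3.69 for each sample with 0. Periostin RNA was thus at the limit of detection, no fold is given, and a difference was not detectable at this depth. Its paralogue TGFBI had 152 ± 2.98 CPM in vehicle against 110.0 ± 2.25 CPM in Liq (SD, n = 2). TGFBI fell by 0.48 on the log2 scale (SE 0.072, edgeR adjusted p = 2.27e-05), which is under 1.5-fold.

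LAMA3 and LAMB3 encode the alpha and beta chains that assemble in the same trimer, and their RNA did not move together. LAMA3, on chromosome 18 from 21269417 to 21536186 (plus strand), had 680 and 576 counts in vehicle and 969 and 1326 in Liq, or 16.5 and 15.4 CPM against 27.2 and 26.4 CPM. Both Liq samples were well above both vehicle samples. LAMA3 rose by 0.75 on the log2 scale (SE 0.097, 95% interval 0.55 to 0.95, edgeR adjusted p = 2.081e-06), which is 1.68-fold. The call was kept in 11 of 11 alternative settings, in which the log2 fold change ran from 0.70 to 0.80. LAMB3, on chromosome 1 from 209788215 to 209825770 (minus strand), had 21262 and 18324 counts in vehicle and 16896 and 22112 in Liq, or 517 and 489 CPM against 475 and 441 CPM. The Liq values were slightly lower without overlap, but the difference did not pass the test (log2 fold change -0.14, SE 0.065, 95% interval -0.27 to -0.0029, edgeR adjusted p = 0.1303). It did pass without Liq replicate 1 (edgeR adjusted p = 0.04332).

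Within each sample, the ratio of LAMA3 to LAMB3 counts was 0.0320 and 0.0314 in vehicle and 0.0574 and 0.0600 in Liq. The ratio was higher in both Liq samples, and a single scaling factor per library does not change it. Offsets that follow the expression level differ between these genes. With them the log2 fold change was 0.72 for LAMA3 and -0.05 for LAMB3. Per kilobase of exon, LAMB3 was nonetheless far above LAMA3 in both conditions, at 108 against 1.10 in vehicle and 98.5 against 1.85 in Liq.

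LAMA4 was the most abundant alpha chain transcript per length, whether exon or canonical transcript lengths were used. LAMA4 held 76.1% and 77.6% of the summed alpha chain level per kilobase in vehicle and 80.8% and 84.1% in Liq, while LAMA3 held 4.24% and 3.99% against 6.06% and 5.70%. By canonical transcript length the LAMA3 share was 3.68% and 3.44% in vehicle and 5.19% and 4.85% in Liq. Among the beta chains the order depended on the length used, because the annotated exons of LAMB1 add up to far more than its canonical transcript. LAMB3 held 71.1% and 70.2% of the beta chain level in vehicle and 65.8% and 65.2% in Liq by exon length, but 51.2% and 50.1% in vehicle and 46.2% and 44.7% in Liq by canonical transcript length. By the latter, LAMB3 was above LAMB1 in both vehicle samples, and in Liq the values of LAMB3 (119 and 110.0 CPM per kilobase) and LAMB1 (117 and 119) overlapped. Of 8 other laminin chain genes tested, 1 fell by at least 1.5-fold (LAMA1), 3 rose and 1 fell with an adjusted p-value under 0.05 but under 1.5-fold, and 3 did not pass the test. LAMA1, an alpha chain of early embryonic basement membranes, fell from 175 and 182 counts to 40 and 63. This was a decrease of 1.92 on the log2 scale (SE 0.19, edgeR adjusted p = 1.699e-08), from 4.56 ± 0.428 to 1.19 ± 0.0922 CPM (SD, n = 2). LAMA5, an alpha chain of mature epithelial and endothelial basement membranes, fell by 0.42 on the log2 scale (edgeR adjusted p = 0.001541). Its size rested on single Liq samples, at -0.59 without Liq replicate 1 and -0.26 without Liq replicate 2. LAMA4, LAMB2 and LAMC1 rose by 0.34, 0.40 and 0.23 on the log2 scale (edgeR adjusted p = 0.0006153, 0.001162 and 0.006161). LAMC1 missed the threshold without vehicle replicate 1 (edgeR adjusted p = 0.1012) or vehicle replicate 2 (0.06779), and LAMB2 was at 0.25 without Liq replicate 1. LAMB1 had 609 ± 6.54 CPM in vehicle against 665 ± 8.59 CPM in Liq (SD, n = 2), which did not pass the test (log2 fold change 0.13, edgeR adjusted p = 0.1339), though it did with offsets that follow the expression level (0.22, edgeR adjusted p = 0.0103).

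**Figure D3:**
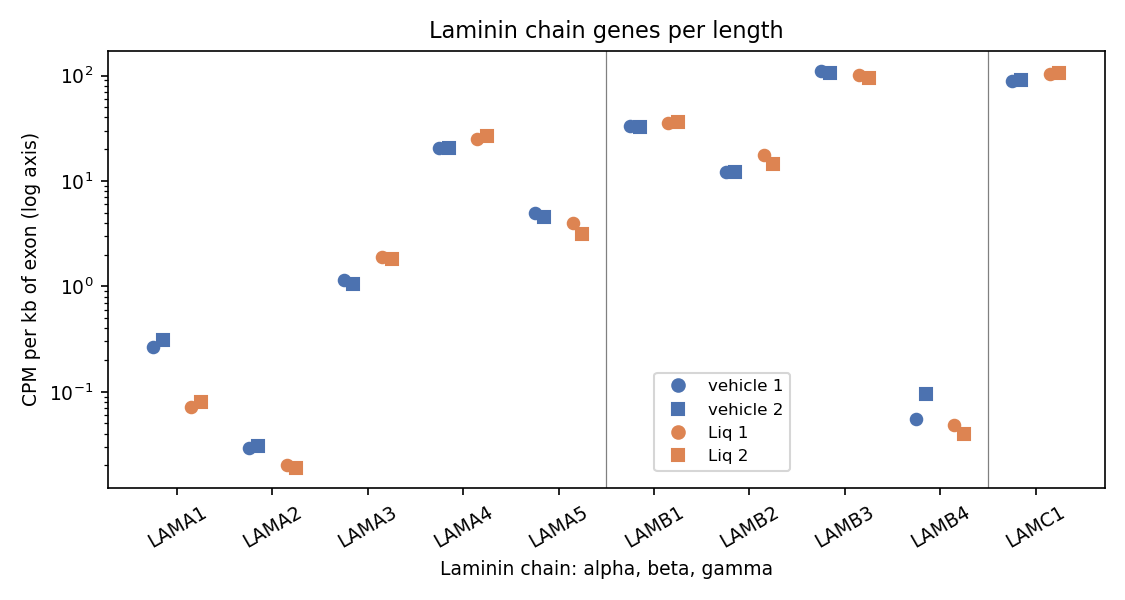
CPM per kilobase of annotated exon (log axis) of laminin chain genes, alpha chains on the left, beta chains in the middle and the gamma chain LAMC1 on the right, with 1 symbol per library. LAMA3 is higher and LAMA1 is lower in both Liq samples. LAMB3 and LAMC1 lie near 100 CPM per kilobase in every library, with LAMC1 slightly higher and LAMB3 slightly lower in both Liq samples.

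The start window of LAMA3 is shown because it holds AP-1 letters that few windows hold. It lies within the gene, at chr18:23872770-23873069 of GRCh38.p14 (plus strand, RefSeq), which matched GRCh37 from 21452734 to 21453033. The annotated gene begins upstream at 21269417, so this is the start of a shorter transcript, and the counts do not separate transcripts of the gene. Capitals mark TGACTCA read in either direction and a GC box.
LAMA3: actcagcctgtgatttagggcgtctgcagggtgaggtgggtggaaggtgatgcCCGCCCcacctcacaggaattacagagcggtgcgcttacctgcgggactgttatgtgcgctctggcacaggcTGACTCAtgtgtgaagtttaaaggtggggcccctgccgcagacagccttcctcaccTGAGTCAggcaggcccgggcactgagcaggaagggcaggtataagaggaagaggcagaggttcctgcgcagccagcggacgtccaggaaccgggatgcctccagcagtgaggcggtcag
TGACTCA begins at -125 and its reverse complement at -69. At least 1 such match was present in 4.95% of all 35116 windows. Among the 13 windows of the 9 genes it was present in 3, those of LAMA3, POSTN and the most downstream of the LAMB3 starts. These 3 genes differed in their values, with LAMA3 higher in Liq, LAMB3 not past the test and POSTN at the limit of detection.

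LOX, on chromosome 5 from 121398890 to 121414108 (minus strand), had 23947 and 21497 counts in vehicle and 27472 and 39104 in Liq. Scaled to the libraries these were 582 and 574 CPM in vehicle and 773 and 779 CPM in Liq. The samples of each group almost coincided and the groups were well apart. LOX rose by 0.42 on the log2 scale (SE 0.061, 95% interval 0.30 to 0.55, edgeR adjusted p = 9.857e-06), which is 1.34-fold and thus under the 1.5-fold threshold. The adjusted p-value was under 0.05 in 11 of 11 alternative settings, with log2 fold changes of 0.41 to 0.51. The ratio of LOX to FN1 counts within a sample was 0.0737 and 0.0760 in vehicle and 0.110 and 0.113 in Liq. SRFBP1 overlaps LOX on the opposite strand and had 1551 and 1537 counts in vehicle and 1294 and 2157 in Liq, a log2 fold change of 0.01 (edgeR adjusted p = 0.9307).

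The window of the most upstream LOX start, at chr5:122078210-122078509 of GRCh38.p14 (minus strand, RefSeq), is shown beside those of THBS1, THBS2 and TNC. Capitals mark its GC box.
LOX: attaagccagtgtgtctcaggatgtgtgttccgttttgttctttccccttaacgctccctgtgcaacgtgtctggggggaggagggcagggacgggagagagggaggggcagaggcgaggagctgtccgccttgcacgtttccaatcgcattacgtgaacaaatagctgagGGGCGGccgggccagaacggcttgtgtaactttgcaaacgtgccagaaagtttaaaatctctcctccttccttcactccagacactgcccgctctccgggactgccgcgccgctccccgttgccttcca
It holds 1 GC box, which begins at -79, and none of the other 3 motifs. The windows of the other 2 LOX starts hold none of the 4. The FN1 window differs by its 6 GC boxes, of which some overlap each other, and by a GC content of 76.7%, against a median of 58.7% over all windows.

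LOX belongs to a family of 5 enzymes. LOXL2, which also crosslinks basement membrane collagen, rose by 0.29 on the log2 scale (SE 0.069, edgeR adjusted p = 0.003324), from 279 ± 14.4 to 341 ± 21.3 CPM (SD, n = 2). It missed the threshold without vehicle replicate 2 (edgeR adjusted p = 0.1365). LOXL1 and LOXL3 had log2 fold changes of 0.14 and 0.31 and did not pass the test (edgeR adjusted p = 0.2518 and 0.071), but both did without Liq replicate 2 (0.002165 and 0.004483). LOXL4 had 0 counts in all 4 samples. Of the 7 tested genes for crosslinking and matrix processing, PCOLCE2, an enhancer of procollagen cleavage, rose by at least 1.5-fold (log2 fold change 0.63, SE 0.10, edgeR adjusted p = 7.861e-05). PCOLCE2 was under 1.5-fold with offsets that follow the expression level (0.57), without vehicle replicate 2 (0.58) and without Liq replicate 2 (0.56). TGM2, the transglutaminase that crosslinks fibronectin, was at 2470.0 CPM in vehicle and fell by 0.40 on the log2 scale (SE 0.059, edgeR adjusted p = 1.325e-05), which is under 1.5-fold. LOXL1, LOXL3, BMP1 and PCOLCE did not pass it.

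Further genes of the matrix were taken from lists set by function, but chosen with earlier results of these data known. The lists may therefore favor changed genes, and the shares given here describe them without testing for enrichment. Of 103 such genes, 75 were tested, of which 12 rose and 2 fell by at least 1.5-fold, or 18.7% against the 6.45% of all tested genes. Another 17 rose and 8 fell with an adjusted p-value under 0.05 but by less, and 36 did not pass the test. Their median log2 fold change was 0.155, against 0.00619 over all tested genes. The counts of rises and falls move with the scaling: of all called genes, 66.5% were higher with Liq, but 46.9% with offsets that follow the expression level, under which 8 of the matrix genes rose and 2 fell.

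Proteins that link basement membranes gave 3 of these increases among 7 tested genes. HSPG2, which encodes perlecan, a proteoglycan that binds laminin and growth factors, had 2182 and 1712 counts in vehicle and 3516 and 4522 in Liq, or 53.1 and 45.7 CPM against 98.9 and 90.1 CPM. It rose by 0.93 on the log2 scale (SE 0.085, edgeR adjusted p = 4.881e-09). NID2, a nidogen that bridges laminin and collagen, rose from 34 and 32 counts to 83 and 101 (log2 fold change 1.36, SE 0.24, edgeR adjusted p = 0.0001215). FRAS1 rose by 0.66 on the log2 scale but was under 1.5-fold with offsets that follow the expression level (0.58) and without Liq replicate 2 (0.55), whereas NTN4, a laminin-related netrin, fell by 0.53 (edgeR adjusted p = 7.997e-05), which is under 1.5-fold. NID1 and AGRN, the main nidogen and a heparan sulfate proteoglycan, had log2 fold changes of 0.12 and -0.11 and did not pass the test.

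Of 12 tested elastic fiber glycoproteins, EFEMP1 rose and MFAP2 fell by at least 1.5-fold, 4 rose by less, and 6 did not pass the test. EFEMP1, a fibulin, rose from 51.5 ± 0.116 to 101 ± 3.33 CPM (SD, n = 2; log2 fold change 0.97, SE 0.078, edgeR adjusted p = 5.673e-10). FBN1, which encodes the main microfibril protein fibrillin, rose by 0.49 on the log2 scale (edgeR adjusted p = 2.228e-05). MFAP2 fell by 1.00 on the log2 scale (SE 0.26, edgeR adjusted p = 0.005432) from 76 and 51 counts to 27 and 42, and lost its call without vehicle replicate 1 and with the DESeq2 Wald test. Of 13 tested other adhesive glycoproteins, 4 rose by at least 1.5-fold and 0 fell by as much. MATN2, a matrilin that joins matrix filaments, had the largest change of the 13, from 282 and 200 counts to 726 and 1012 (log2 fold change 1.73, SE 0.12, edgeR adjusted p = 2.394e-11). EDIL3, a ligand of integrins, rose by 1.5 on the log2 scale (SE 0.23), HMCN1 by 0.83 and IGFBP7 by 0.61. IGFBP7 was under 1.5-fold with offsets that follow the expression level (0.54), without vehicle replicate 2 (0.56) and without Liq replicate 1 (0.58).

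**Figure D4:**
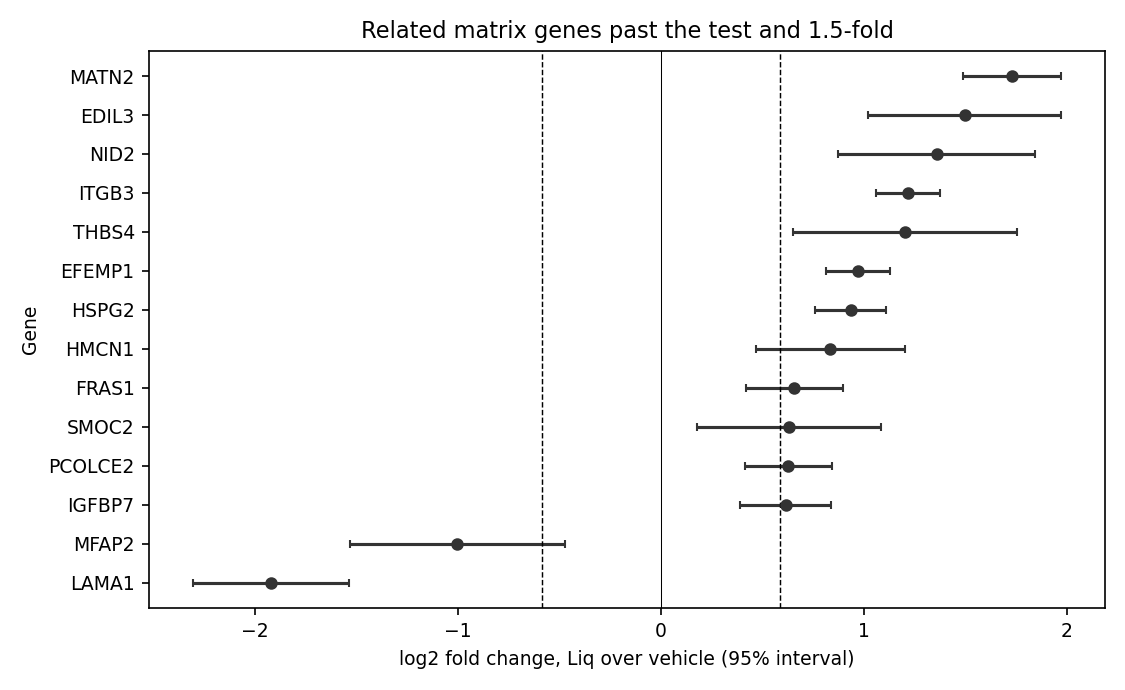
Log2 fold change (Liq over vehicle) with 95% intervals for the 14 related matrix genes that passed the adjusted p-value and 1.5-fold, with dashed lines at 1.5-fold. MATN2 lies highest at 1.73 and LAMA1 lowest at -1.92, and 12 of the 14 are higher with Liq.

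Of 20 tested receptors for these proteins, 5 rose and 3 fell with an adjusted p-value under 0.05 but under 1.5-fold, and 11 did not pass the test. Only 1 changed by at least 1.5-fold, or 5% against the 6.45% of all tested genes. This was ITGB3, a beta integrin chain that binds fibronectin, thrombospondin and other ligands with an RGD motif, which had 1947 and 1743 counts in vehicle and 3899 and 5462 in Liq (log2 fold change 1.22, SE 0.077, edgeR adjusted p = 4.935e-12). Of the laminin receptor chains, ITGA6 fell by 0.26 on the log2 scale (edgeR adjusted p = 0.004374), ITGA3 had a log2 fold change of 0.16 that did not pass the test (edgeR adjusted p = 0.06521), and ITGB4 had 25 to 45 counts per sample. SDC4, a syndecan that acts with integrins on fibronectin, fell by 0.53 on the log2 scale (edgeR adjusted p = 1.037e-05), which is under 1.5-fold.

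The genes nearest to LAMA3 and TNC in profile were found by the Euclidean distance between the 4 log2 CPM values, each taken relative to the vehicle mean. For LAMA3 these were SLC4A5, CSPG4 and PTGER2, at distances of 0.0261, 0.0393 and 0.0426. For TNC they were PPP1R14B, KANK2 and PLP2, at distances of 0.0354, 0.0392 and 0.0462. Over 4 samples many genes lie close to each other, so this only describes which values were alike.

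**Figure D5:**
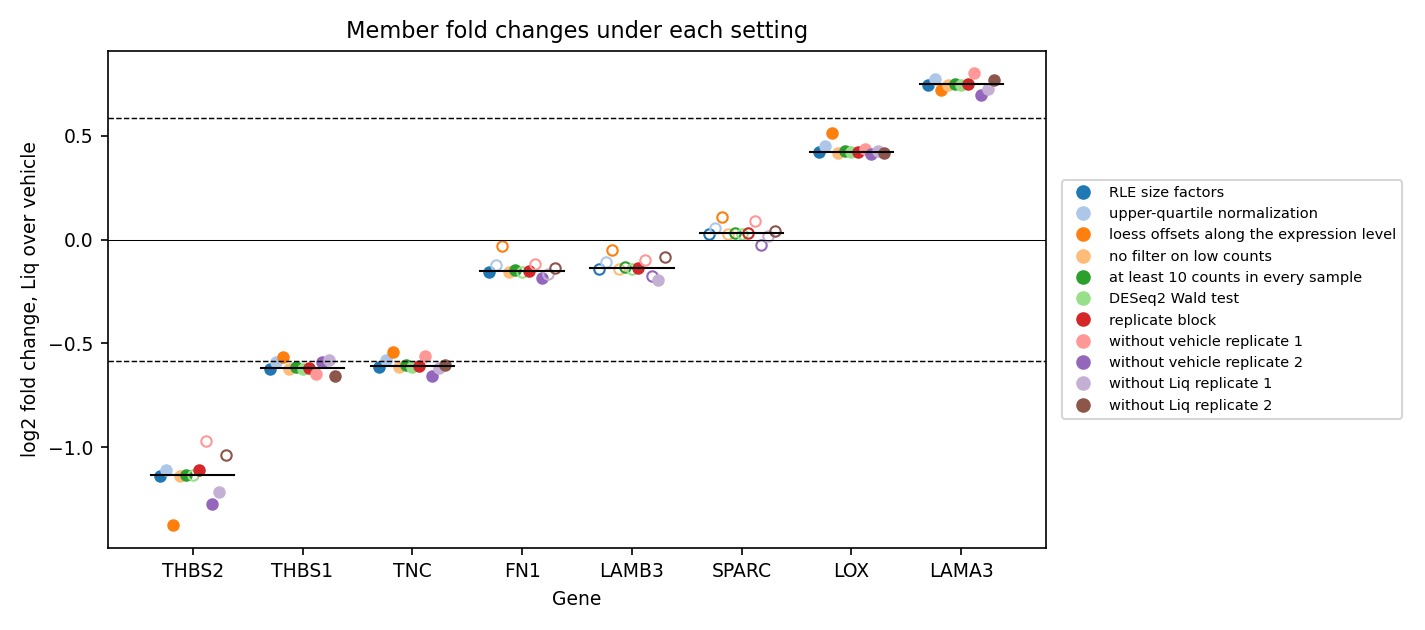
Log2 fold change (Liq over vehicle) of the 8 tested members under each of 11 alternative settings, with black bars at the reported values, dashed lines at 1.5-fold and open symbols where the adjusted p-value was not under 0.05. LAMA3 stays above the upper line, THBS1 and TNC lie on both sides of the lower line, and the open symbols at THBS2, FN1, LAMB3 and SPARC show the settings in which their p-values missed the threshold.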

How the data were processed

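RNA-seq of ES2 cells was analysed for 2 vehicle and 2 Liq samples, grouped by their titles. Per the labels, the authors prepared TruSeq libraries, read 100 bases from 1 end, demultiplexed with bcl2fastq 2.17.1.14, aligned to hg19 (GRCh37) with TopHat2 2.0.8b and counted reads per gene with HTSeq. The dose comes from the study's methods. The values deposited by the authors are whole-number counts per gene symbol, neither normalized nor filtered. Between 54.06% and 55.62% of tallied reads were on genes, and the 5 tally lines that name no gene were left out. HTSeq drops reads that align to several places or overlap several genes; whether it used strand is not given in the sources used here.

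The fit used edgeR 4.0.16 in R 4.3.3 (filterByExpr with a minimum count of 10, TMM, glmQLFit and glmQLFTest without a block), with Benjamini-Hochberg adjustment over 13546 genes. SE is the size of the log2 fold change over the square root of F. The call combined an adjusted p-value under 0.05 with at least 1.5-fold, since the methods give 1.5-fold and p under 0.05 without naming an adjustment. Alternatives were other scalings (DESeq2's size factors, upper quartile, loess offsets, span 0.3), other filters, the DESeq2 1.42.0 Wald test, a replicate block, each sample left out, and other thresholds. The fits were tested on counts simulated with edgeR's own estimate of the spread, with changes planted only in genes of higher counts. Such counts cannot judge that estimate, changes close to 1.5-fold, or counts as low as those of THBS2. Exon lengths and coordinates are from GENCODE v44 mapped to GRCh37, in which all 112 listed genes were found by symbol. Of the 13546 tested genes, 11560 were found there. The exons counted may therefore differ from those whose lengths were used, which limits the levels per length.

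The members and the lists were chosen with earlier results of these data known. Named genes were the members, the related genes past the call, the main laminin chains and lysyl oxidases, and the 2 of each list with the smallest p-value. COMP, the tenascins, ITGA5, ITGB1, ITGA6, ITGA3, ITGB4, NID1, AGRN, BMP1, PCOLCE, SPOCK1, SMOC1 and FSTL1 were added after their values were seen. The PCR, reporter and xenograft experiments were not analysed here, and some genes of the lists are not reported here and enter no list count.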

Additional observations from a re-analysis of the deposited data

How the results depend on the processing

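Of the 9 matrix genes, 4 passed both thresholds in edgeR, and the number was 2 with loess offsets along the expression level (LAMA3 and THBS2) and 1 when a 2-fold change was required (THBS2). Leaving out 1 sample at a time gave 2 to 4, the 2 being LAMA3 and THBS1 without vehicle replicate 1. LAMA3 kept its call under all 11 alternative settings of the fit. For all tested genes the number of 874 moved to 567 with the DESeq2 Wald test, 328 when a 2-fold change was required and 3245 without a fold threshold, and to between 659 and 979 when 1 sample was left out. Among the related matrix genes the number of 14 moved to 7 when a 2-fold change was required and to 39 without a fold threshold, and it lay between 12 and 15 when 1 sample was left out. Of these 14 genes, 8 kept their call under all 11 settings. Over the 11 settings and 37 genes followed singly, 377 of 407 values kept their direction and call, 24 lost the call and 4 gained it. The other 2 changed sign without a call, SPARC to -0.03 without vehicle replicate 2 and LOXL1 to -0.02 without Liq replicate 1. The replicate block left 4 matrix genes, 14 related genes and 898 genes in all, and LAMB3, LAMB1, LOXL1 and LOXL3 then passed the adjusted p-value (0.01445, 0.01922, 0.04184 and 0.04832, edgeR). The block used the numbers in the sample titles. Over all tested genes, deviations from the group means correlated at 0.0483 between samples with the same number. Each gene counted equally there, whatever its counts, so this value cannot exclude that the numbers pair the samples. With the block the SE was smaller for each tested matrix gene. It went from 0.0487 to 0.0293 for FN1, but only from 0.325 to 0.32 for THBS2. The main fit has no block because the methods state no pairing. The upper-quartile scaling moved the median log2 fold change of all genes by 0.0273 and the other scalings by less. That median does not show the effect of the loess offsets, which moved single genes either way. With them FN1 went from -0.152 to -0.033 and THBS2 from -1.136 to -1.377. Depth limits POSTN, at 4 counts or fewer, and THBS2, at 16 to 42.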
